A study of Mus musculus with 5 samples.

Results

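The neurogenic basic helix-loop-helix (bHLH) transcription factors described here are Atoh1, Neurog1, Neurog2, Neurod1, Neurod2, Neurod6, Nhlh1 and Nhlh2, together with the zinc finger factor Insm1. They were taken by gene symbol in the annotation of the array platform, which gave 11 probes for 9 of the 19057 genes with a named probe. Their levels were measured in 5 end-stage mouse medulloblastomas, tumours of the cerebellum, with 1 Illumina bead array per tumour. All 5 came from mice that carried SmoA2, a mutant of the hedgehog signal transducer Smoothened that is active without ligand. Of these, 2 were from mice with 1 intact copy of the myogenic bHLH gene Myod1 (MyoD+/-;SmoA2, tumours 1 and 2), and 3 from mice with both copies (MyoD+/+;SmoA2, tumours 1 to 3). The labels give no age or sex and do not name the promoter of the SmoA2 transgene. SmoA2 mice have been made with the promoter of Neurod2, and the labels do not say whether these mice are of that kind. Nor do they say whether the 5 tumours came from 5 mice, and the p-values below speak only of the spread among these samples. The tumours are bulk tissue, in which fewer cells of a type and less RNA per cell cannot be told apart.

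MyoD and the neurogenic bHLH factors share a DNA-binding basic region and a helix-loop-helix through which they pair with E proteins. The pairs bind the E-box, whose letters are CANNTG, and Id proteins block the pairing. In the cerebellum, Atoh1 specifies the precursors of granule neurons in the rhombic lip, Neurod1 acts as these cells leave the cell cycle and differentiate, and Neurod2 acts in maturing neurons. Insm1 is made in neuronal progenitors and neuroendocrine cells and represses transcription. The series compares Myod1 genotypes in tumours that arise from granule neuron precursors. The bHLH genes described here are relatives of MyoD that act in the nervous system.

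RefSeq promoter sequence (build GRCm38.p6) was at hand for 8 of the 9 genes. The 250 bases before the start site are shown for Neurod1 and Neurod2, which alone among these 8 were detected in every tumour. They are also shown for Atoh1, which was detected in none. They are the reference sequence, not that of the tumours. Capitals mark E-boxes (CANNTG, which reads the same on both strands).
Neurod1 promoter: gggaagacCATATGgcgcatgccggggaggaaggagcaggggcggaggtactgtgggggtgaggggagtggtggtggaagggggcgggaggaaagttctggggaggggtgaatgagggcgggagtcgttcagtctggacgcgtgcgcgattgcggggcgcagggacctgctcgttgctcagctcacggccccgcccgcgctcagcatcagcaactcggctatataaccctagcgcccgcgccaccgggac
Neurod2 promoter: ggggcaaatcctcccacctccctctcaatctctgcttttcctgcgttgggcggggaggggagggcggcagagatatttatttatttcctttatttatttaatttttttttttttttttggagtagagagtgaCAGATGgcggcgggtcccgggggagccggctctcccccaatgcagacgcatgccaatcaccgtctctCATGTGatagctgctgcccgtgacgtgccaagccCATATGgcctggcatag
Atoh1 promoter: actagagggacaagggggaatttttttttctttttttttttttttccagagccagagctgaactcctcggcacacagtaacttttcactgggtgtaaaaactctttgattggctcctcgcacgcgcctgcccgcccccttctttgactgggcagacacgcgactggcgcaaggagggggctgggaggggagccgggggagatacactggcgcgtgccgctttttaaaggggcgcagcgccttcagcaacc
The Neurod1 window lies at chr2:79456637-79456886 on the minus strand, the Neurod2 window at chr11:98329646-98329895 on the minus strand and the Atoh1 window at chr6:64728875-64729124 on the plus strand. Neurod1 had 1 E-box in its window, which begins 242 bases before the start. Neurod2 had 3, which begin 118, 51 and 17 bases before the start, and Atoh1 had 0. Of the 32851 promoter windows of this length in the RefSeq table, 66.2% held at least 1 E-box and 12.2% at least 3. Among the 8 genes, 5 held an E-box. A match to these letters is a description of the window and not a binding site.

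Of the 9 genes, Neurod1, Neurod2 and Insm1 were above background in all 5 tumours. Neurog1 was above background in 2 tumours, and Atoh1, Neurog2, Neurod6, Nhlh1 and Nhlh2 in 0. Detection means a detection p under 0.05 against the background of the same array. A gene was tested where 1 of its probes was detected on at least 2 arrays, so 4 of the 9 genes were tested. Over the whole array 55.0% of genes with a named probe met that condition, 46.6% had a probe detected on all 5 arrays and 40.0% had none detected on any. Detection depends on the probe as well as on the transcript, and a gene listed as not detected may still be expressed.

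**Figure D1:**
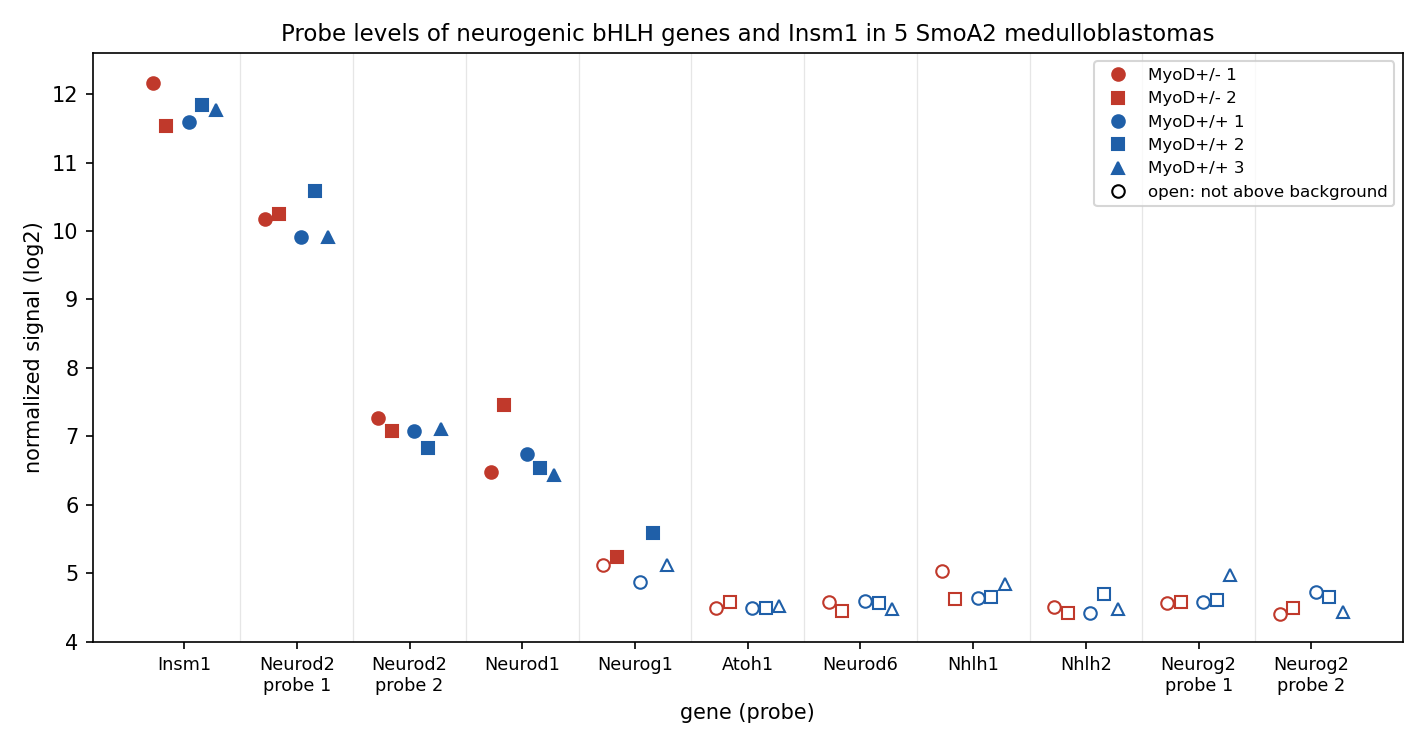
Normalized signal (log2, vertical axis) of each probe of the 9 genes (horizontal axis) in the MyoD+/- tumours (red, left) and the MyoD+/+ tumours (blue, right), with 1 point per tumour. Filled points are above background and open points are not; Insm1, Neurod1 and both probes of Neurod2 are filled in all 5 tumours. Heights of different probes are not comparable as levels of their genes.

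The proneural genes, which start neuronal fate in progenitors, were not detected or lay near the threshold. The Atoh1 probe stood at 4.49 and 4.58 in MyoD+/- tumours 1 and 2, against 4.49, 4.49 and 4.51 in MyoD+/+ tumours 1 to 3 (normalized log2 signal). Its detection p was 0.752 and 0.509 in the MyoD+/- tumours, against 0.706 to 0.779 in the MyoD+/+ tumours. These 5 values span 0.095 log2 units, and each lay at the background of its array. Atoh1 lies on chromosome 6 (64729125 to 64731245, GRCm38.p6) and had 1 probe, so no second probe could be set beside this reading.

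Neurog1, a proneural gene of sensory and ventricular zone progenitors, was above background in MyoD+/- tumour 2 and MyoD+/+ tumour 2. It stood at 5.12 and 5.23 in the MyoD+/- tumours, against 4.86, 5.58 and 5.12 in the MyoD+/+ tumours (log2). The detection p was 0.0684 and 0.0385 in the MyoD+/- tumours, against 0.131, 0.0278 and 0.0705 in the MyoD+/+ tumours, so every reading lay close to the threshold. The MyoD+/+ tumours spanned the values of both MyoD+/- tumours. At a detection p under 0.01 Neurog1 was detected on 0 arrays. Both probes of Neurog2, a proneural gene of the forebrain and spinal cord, were below the threshold everywhere, with detection p from 0.106 upwards. The first stood at 4.56 and 4.57 in the MyoD+/- tumours, against 4.57 to 4.98 in the MyoD+/+ tumours. The second stood at 4.401 and 4.50 in the MyoD+/- tumours, against 4.44 to 4.72 in the MyoD+/+ tumours.

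Neurod1 was detected in every tumour and was highest in MyoD+/- tumour 2. It stood at 6.48 and 7.46 in the MyoD+/- tumours, against 6.73, 6.53 and 6.43 in the MyoD+/+ tumours (log2), from deposited signals of 214.6 and 311.0 against 231.2, 183.7 and 214.6. MyoD+/- tumour 1 lay within the range of the MyoD+/+ tumours, so the groups overlapped, and the higher mean of the MyoD+/- group came from 1 tumour. The means were 6.97 ± 0.69 in the MyoD+/- and 6.56 ± 0.16 in the MyoD+/+ tumours (SD, n = 2 and 3). The difference (MyoD+/- minus MyoD+/+) was 0.41 ± 0.29 on the log2 scale (SE; limma adjusted p = 0.957), and its 95% interval ran from -0.28 to 1.09. As a ratio the interval runs from 0.825 to 2.13, so neither a small decrease nor a doubling is outside it. Without MyoD+/- tumour 2 the difference was -0.082.

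Neurod2 had a pair of probes, both detected in every tumour, and they ordered the tumours differently. On the brighter probe the level was 10.17 and 10.24 in the MyoD+/- tumours, against 9.91, 10.58 and 9.91 in the MyoD+/+ tumours (log2). On the dimmer probe it was 7.26 and 7.08 in the MyoD+/- tumours, against 7.07, 6.82 and 7.11 in the MyoD+/+ tumours. MyoD+/+ tumour 2 was thus the highest of the 5 on the brighter probe and the lowest on the dimmer one. The difference was 0.071 ± 0.24 on the brighter probe (SE; limma adjusted p = 0.989), and its 95% interval ran from -0.50 to 0.64. With every probe tested on its own, the dimmer probe gave 0.17 ± 0.18 (limma adjusted p = 0.969). The groups overlapped on both probes.

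The overlap of the Neurod2 values turned on how the arrays were scaled. The deposited signals of the brighter probe were 1362.4 and 1449.5 in the MyoD+/- tumours, against 1104.9, 1249.2 and 1132.8 in the MyoD+/+ tumours, and did not overlap. The array of MyoD+/+ tumour 2 was dimmer as a whole, with a median probe signal of 133.6 against 145.2 to 148.1 on the other 4 arrays. Quantile normalization raised its Neurod2 value above the others. With median scaling the brighter probe stood at 10.26 and 10.36 in the MyoD+/- tumours, against 9.91, 10.25 and 9.94 in the MyoD+/+ tumours, and the groups did not overlap on either probe. The difference was then 0.28, in a setting where the median difference of all genes was itself 0.14. The share of all genes without overlap was not counted for the deposited signals or for median scaling. The separation of Neurod2 in those settings can therefore not be called particular to it.

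The other genes of differentiating neurons did not reach the detection threshold on any array. Neurod6, a factor of forebrain excitatory neurons, stood at 4.57 and 4.45 in the MyoD+/- tumours, against 4.59, 4.56 and 4.48 in the MyoD+/+ tumours (log2). Nhlh1, which is switched on for a short time in newly born neurons, stood at 5.04 and 4.63 in the MyoD+/- tumours, against 4.64, 4.65 and 4.85 in the MyoD+/+ tumours. Its lowest detection p, 0.0844 in MyoD+/- tumour 1, was the nearest to the threshold among the 5 genes not detected. Nhlh2, best known from neurons of the hypothalamus, stood at 4.50 and 4.41 in the MyoD+/- tumours, against 4.42, 4.69 and 4.48 in the MyoD+/+ tumours. With no filter on detection, the differences of these 5 genes on their brightest probes ran from -0.15 (Neurog2) to 0.12 (Nhlh1), and the lowest limma adjusted p among them was 0.974 over 19057 genes.

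Insm1 was detected in every tumour and was highest in MyoD+/- tumour 1. It stood at 12.17 and 11.53 in the MyoD+/- tumours, against 11.60, 11.84 and 11.77 in the MyoD+/+ tumours (log2). In this normalization the MyoD+/- tumours were the highest and the lowest of the 5. With median scaling MyoD+/- tumour 2, at 11.67, stood above MyoD+/+ tumours 1 and 2, at 11.58 and 11.53, and in the deposited signals it likewise stood above those tumours. The deposited signals were 5145.1 and 3400.9 in the MyoD+/- tumours, against 3252.7, 2877.3 and 3739.7 in the MyoD+/+ tumours. The difference was 0.11 ± 0.23 (SE; limma adjusted p = 0.987), and its 95% interval ran from -0.42 to 0.64. Leaving out MyoD+/- tumour 2 gave 0.42 and leaving out MyoD+/- tumour 1 gave -0.21, so its direction rested on which MyoD+/- tumour was kept. Insm1 lies on chromosome 2 (146221997 to 146225020), the chromosome of Neurod1 (79452637 to 79456636).

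**Figure D2:**
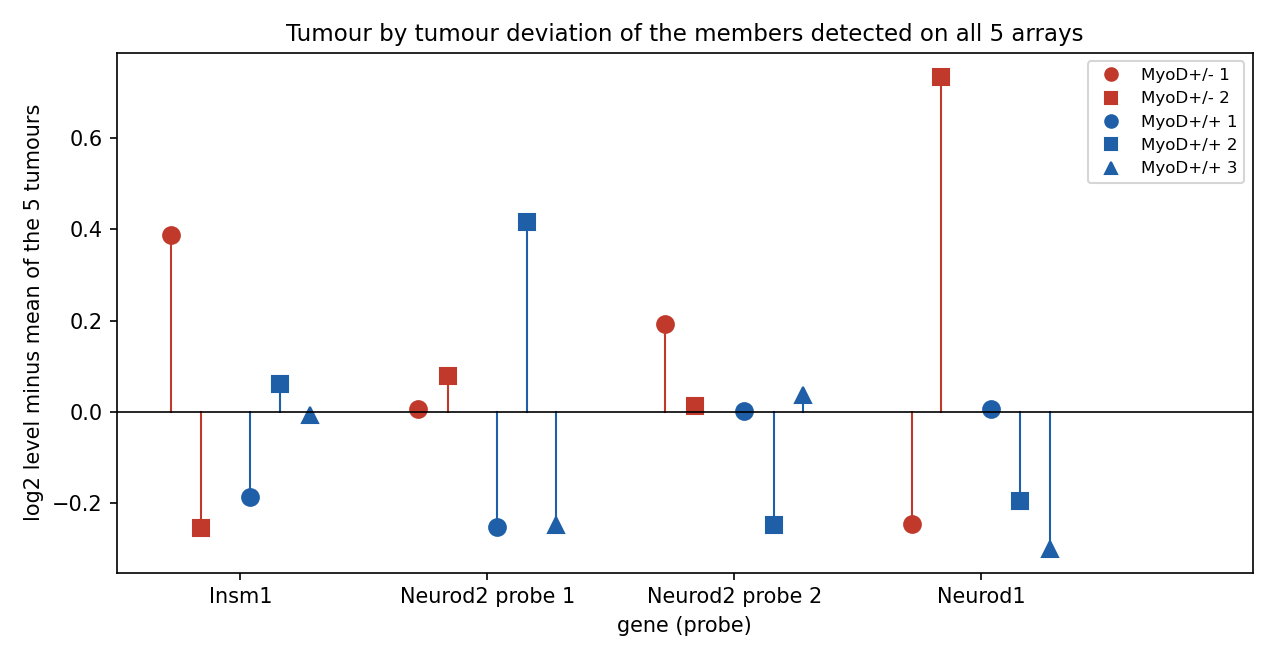
Deviation of each tumour from the mean of the 5 tumours (log2, vertical axis) for the probes detected on all 5 arrays (horizontal axis), with MyoD+/- tumours in red and MyoD+/+ tumours in blue. In this normalization a different tumour stands highest for Insm1 (MyoD+/- tumour 1), the brighter Neurod2 probe (probe 1, MyoD+/+ tumour 2) and Neurod1 (MyoD+/- tumour 2).

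Of the 4 tested genes, 0 reached an adjusted p under 0.05 in limma, as did 0% of the 10474 genes tested on the array. At an unadjusted p under 0.05 there were 0 of the 4, against 5.26% (551) of all genes. When limma fitted a variance trend with robust estimation, 2 genes of the array passed, Gdpd3 and Mbp, neither a neurogenic bHLH gene nor Insm1. Mbp is one of the oligodendrocyte markers read below. The groups overlapped in each of the 4, while they did not overlap in 20.9% of all genes. Their median difference was 0.091 (3 higher and 1 lower), beside a median of -0.0027 over all genes, of which 49.6% were higher. On the normalized signal, the intervals of Neurod2 and Insm1 exclude a difference of 1 log2 unit in both directions. That of Neurod1 excludes it only downwards. The interval of Neurog1 ran from -0.57 to 0.54, but its signal lay near background, so it cannot exclude such a difference in the transcript. The offset of the normalization makes differences of dim probes smaller, which bears most on Neurod1 and Neurog1.

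The spread between tumours differed among these genes and with the processing. The SD over the 5 tumours was 0.43 for Neurod1, 0.28 for the brighter Neurod2 probe, 0.26 for Neurog1 and 0.25 for Insm1 (log2). Over all tested genes the median SD was 0.23 and the upper quartile 0.32. In the main normalization Neurod1 lay at percentile 89.8 of that distribution, and the other 3 genes between percentiles 57.8 and 64.9. The Neurod1 value rested on MyoD+/- tumour 2, without which its SD was 0.13. Without background correction the order changed: the SD was 0.22 for Neurod1, 0.25 for Neurod2, 0.24 for Insm1 and 0.076 for Neurog1. The percentiles were then 85.3 for Neurod1, 90.6 for Neurod2, 89.9 for Insm1 and 17.2 for Neurog1. With median scaling they were 92.5, 29.8, 62.9 and 33.3 in the same order. All these Neurod2 values are from its brighter probe. The SD of the dimmer probe was 0.16 in the main normalization, 0.083 without background correction and 0.29 with median scaling. Those values lay at percentiles 25.0, 21.3 and 59.9, so the place of Neurod2 depended on the probe.

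The letters in the sample titles, whose meaning is not given, offer 1 pair of tumours with V (MyoD+/- tumour 1 and MyoD+/+ tumour 2) and 1 pair with P (MyoD+/- tumour 2 and MyoD+/+ tumour 3). In the main normalization the within-letter differences had opposite signs for each gene detected in every tumour. For Neurod1 the difference was -0.050 in the V pair and 1.03 in the P pair. It was -0.41 and 0.33 for Neurod2 on its brighter probe, and 0.33 and -0.25 for Insm1. The dimmer Neurod2 probe went the other way, at 0.44 in the V pair and -0.024 in the P pair. With median scaling the V and P pairs had the same sign for Neurod1 (0.26 and 1.08) and opposite signs for Insm1 (0.75 and -0.12). Both Neurod2 probes then had the same sign in V and P, at 0.012 and 0.42 on the brighter and 0.75 and 0.020 on the dimmer. With the letters as a block in limma, Neurod1 differed by 0.49 (adjusted p = 0.675) and the brighter Neurod2 probe by -0.041 (adjusted p = 0.975). In the same limma fit Neurog1 differed by -0.18 (adjusted p = 0.837) and Insm1 by 0.039 (adjusted p = 0.973), and none passed. Xist, a transcript made from silenced X chromosomes, was detected in MyoD+/- tumour 1 and MyoD+/+ tumour 1 and in none of the other 3 tumours, so both genotypes held tumours with and without it.

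Beside the genes above, 12 other neural bHLH factors were listed, of which 9 had a probe and 3 were tested (Neurod4, Olig1 and Olig3). Together with the 8 neurogenic bHLH factors this made 17 neural relatives of MyoD with a probe, of which 6 were tested (35.3%, against 55.0% of all genes) and 5 were detected in every tumour. Olig3, a bHLH factor of the rhombic lip and dorsal spinal cord, stood at 8.87 and 8.34 in the MyoD+/- tumours, against 7.33, 7.42 and 7.92 in the MyoD+/+ tumours. These groups did not overlap, with a difference of 1.05 ± 0.25 (SE; unadjusted p = 0.00383, limma adjusted p = 0.911), which did not pass. Neurod4, a relative of Neurod1 in retina and midbrain, stood at 7.06 and 6.58 in the MyoD+/- tumours, against 5.997, 6.89 and 6.27 in the MyoD+/+ tumours, a difference of 0.43 ± 0.29. Olig1, a factor of the oligodendrocyte lineage named here because it was detected, differed by -0.13 ± 0.24. None of the 3 passed, and their median difference was 0.43. That median was 0.19 without MyoD+/- tumour 1, 0.70 without MyoD+/+ tumour 2 and 0.098 with no filter on detection.

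**Figure D3:**
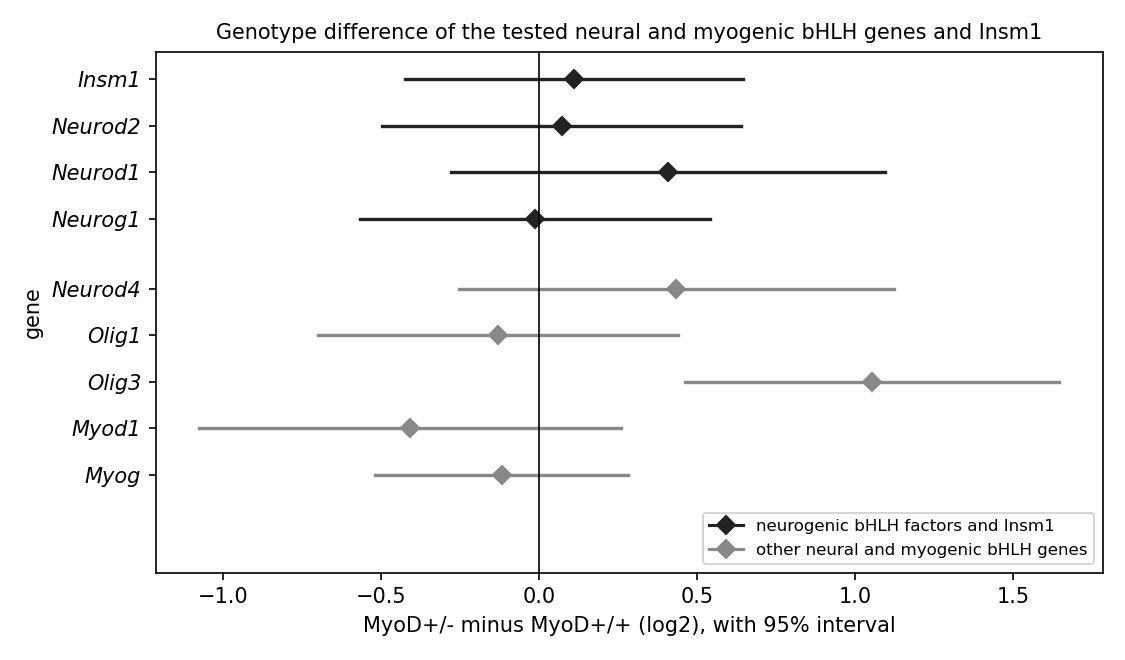
Difference between genotypes (MyoD+/- minus MyoD+/+, log2, horizontal axis) with its 95% interval for the 4 tested genes (black) and for the other tested neural bHLH genes and the myogenic genes Myod1 and Myog (grey). Each black interval crosses 0; the interval of Olig3 lies above 0, from 0.46 to 1.65, at an adjusted p of 0.911 in limma.

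Of the 4 myogenic bHLH genes, Myod1 was detected in all 5 tumours, Myog on 3 arrays, Myf6 on 1 and Myf5 on 0. The tested Myog probe lay near the threshold, with detection p from 0.028 to 0.076, and was detected on 0 arrays at p under 0.01. The other Myog probe was detected on 0 arrays and had the opposite sign with no filter, at 0.078. Myod1 differed by -0.41 ± 0.28 and Myog, which drives terminal muscle differentiation, by -0.12 ± 0.17 (SE), with overlapping groups in both. Neither passed, and the median of the pair was -0.26. The highest Neurod1 value (MyoD+/- tumour 2) and the highest Myod1 value (MyoD+/+ tumour 1, at 7.25) were in different tumours.

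The partners and inhibitors of these factors were all detected: of 7 E protein and Id genes tested, 4 were higher and 3 lower, 0 passed, and the median difference was 0.027. Id1, an inhibitor of bHLH pairing, stood at 7.61 and 7.71 in the MyoD+/- tumours, against 7.96, 8.51 and 7.996 in the MyoD+/+ tumours, a difference of -0.50 ± 0.22 (limma adjusted p = 0.945). Id3 differed by -0.45 ± 0.22. Other detected probes changed the sign of some of these genes. Tcf3 stood at 0.18 on its brightest probe and -0.41 on another, and Id4 at 0.21 and -0.32. Tcf12 went the other way, at -0.016 on its brightest probe and 0.38 and 0.28 on others. With the mean of each gene's probes the list median was -0.051. Of the Hes and Hey repressors, which hold progenitors undifferentiated under Notch signals, 4 of 7 were tested, with 2 higher, 2 lower, 0 passing (median -0.079). Hes6, a member of the family that promotes neuronal differentiation, differed by -0.32 ± 0.25 on its brightest probe. Both remaining Hes6 probes had the opposite sign, at 0.46 ± 0.21 with groups that did not overlap and at 0.29 ± 0.20, and neither passed. Hey1 differed by -0.34 ± 0.29. Of the relatives and co-repressors of Insm1, 8 of 12 with a probe were tested, 6 higher and 2 lower, 0 passing (median 0.034). The histone demethylase gene Kdm1a, whose product Insm1 recruits, differed by 0.099 ± 0.16, and Scrt2, a neuronal repressor, by 0.19 ± 0.34.

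The wider granule neuron lineage likewise had no gene past the threshold. The granule precursor programme around Atoh1 held 17 genes, of which 11 were tested, and 5 of these were higher and 6 lower (median -0.046). Meis2, a homeobox gene, was above background in 0 MyoD+/- and 2 MyoD+/+ tumours. It stood at 4.61 and 4.89 in the MyoD+/- tumours, against 6.31, 4.96 and 6.15 in the MyoD+/+ tumours, and was tested only through the group in which it was brighter. It did not pass. The cyclin gene Ccnd2 differed by 0.28 ± 0.22. The list of maturing granule neurons had 17 tested genes, of which 13 stood higher and 4 lower (median 0.13). Kcnd2, a potassium channel of granule neurons, differed by 0.71 ± 0.35, while Grin2c, a glutamate receptor subunit of mature granule neurons, was above background in 0 MyoD+/- and 2 MyoD+/+ tumours. Grin2c stood at 4.95 and 5.18 in the MyoD+/- tumours, against 5.44, 5.32 and 6.22 in the MyoD+/+ tumours, entered the test in the same way and did not pass. Without background correction the differences were -0.35 for Meis2 and -0.18 for Grin2c. Among 8 tested proliferation genes, 7 were higher and 1 lower (median 0.17). The spindle gene Tpx2 differed by 0.96 ± 0.20 (limma adjusted p = 0.911) and the mitotic kinase Plk1 by 0.40 ± 0.17, and neither passed.

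Marker genes were read for the cells these samples could hold. Of 8 markers of the granule lineage 7 were tested, and their summed linear level was 21224 and 20523 in the MyoD+/- tumours, against 19719, 20642 and 20547 in the MyoD+/+ tumours. Of the 5 markers of forebrain excitatory neurons with a probe, Fezf2 and Slc17a7 were detected in all 5 tumours, while Tbr1 was detected on 1 array and Emx1 and Emx2 on 0. Fezf2 stood at 6.77 and 6.70 in the MyoD+/- tumours, against 6.81, 6.94 and 6.61 in the MyoD+/+ tumours. Slc17a7, which granule neurons also express, ranged from 8.15 in MyoD+/+ tumour 2 to 11.09 in MyoD+/+ tumour 3. Oligodendrocyte markers (6 of 6 with a probe) summed to 2701 and 2887 in the MyoD+/- tumours, against 6403, 6507 and 4856 in the MyoD+/+ tumours. Such a sum gives most weight to the brightest markers. By gene, 5 were lower and 1 higher, with 0 passing (median -0.89). Their median level was 8.06 and 7.98 in the MyoD+/- tumours, against 8.72, 8.62 and 8.03 in the MyoD+/+ tumours, so it overlapped. At an unadjusted p under 0.05 in limma there were 5 of these 6 markers, against 5.26% of all genes. One of the 6, Mbp, passed when limma fitted a variance trend with robust estimation. Markers of Purkinje cells and GABA interneurons had a median difference of -0.37 (4 tested genes, 0 higher and 4 lower). The median was 0.17 for unipolar brush cells (2 tested, 1 higher and 1 lower) and -0.076 for astrocytes (6 tested, 1 higher and 5 lower). For microglia and macrophages it was 0.27 (4 tested, 3 higher and 1 lower). For endothelial cells it was -0.14 (5 tested, 0 higher and 5 lower), and no gene of these lists passed. The part of these cells in the values of the neurogenic genes was not tested.

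For Neurod1 and the brighter Neurod2 probe, which had the largest SD among the genes detected in all 5 tumours in the main normalization (with median scaling Insm1, at 0.30, exceeded that Neurod2 probe, at 0.20), the tested genes most like each were found by the root-mean-square distance between log2 levels centred on their mean over the 5 tumours. Nearest to Neurod1 were Lag3 (distance 0.080), Zfp62 (0.11), Selenok (0.12), Fbxo27 (0.12) and 0610009B22Rik (0.13), beside a median distance of 0.44 over all genes. Each of these had its highest value in MyoD+/- tumour 2. Nearest to the brighter Neurod2 probe were Map3k14 (0.027), Neat1 (0.037), Cd247 (0.050), H1f2 (0.050) and Ip6k2 (0.051), beside a median of 0.31, and each had its highest value in MyoD+/+ tumour 2. The Neurod2 peak in MyoD+/+ tumour 2 depended on probe and scaling, since that tumour was lowest on the dimmer probe. On the brighter probe, MyoD+/- tumour 2 was the highest in the deposited signals and with median scaling. Sharing the highest tumour follows from choosing genes by this distance. With 5 tumours and 10474 genes to choose from, such likeness is a description of these arrays.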

How the data were processed

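Per the file headers, the authors deposited a signal intensity per probe and array, not normalized, and a detection p-value beside each signal, for 45281 probes. A table of the authors' processed values was on a log2 scale: its deposited columns kept the probe order of the matching signals (rank correlation 1), with sorted values within 0.0036 of the log2 mean sorted signal. Per the labels' protocols, an Ambion MessageAmp kit gave the biotinylated cRNA; scanner and software are not given in the sources used here.

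The neqc function of limma 3.58.1 (R 4.3.3) was applied to the signals: a normal-exponential background model whose negative controls are estimated through the detection p-values, an offset of 16, quantile normalization and log2. Probes detected at p under 0.05 on at least 2 arrays were kept (18675 probes), and each gene was represented by its brightest probe over all 5 arrays, giving 10474 genes. On each array 37.0% to 39.9% of probes were detected; the number of arrays limits the precision. Of the probes, 34885 had 1 gene symbol, 18 several and 10378 none; positions and symbols come from a RefSeq table (GRCm38.p6, 34807 named probes matched, 0 symbols changed). MyoD+/- and MyoD+/+ tumours were compared by limma's moderated test (lmFit, eBayes, two-sided, genotype as the only term), with Benjamini-Hochberg adjustment over all genes. The fit was tested on simulated data with 100 changed genes of 10474. It recovered 43% of changes of 1 log2 unit and 87% of changes of 2 log2 units, with 7 false calls at each size. A gene that did not pass may therefore still differ.

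Named were all 9 genes and their probes, the myogenic bHLH genes, the 2 tested genes of smallest p in each of the other lists, and the 5 genes nearest in pattern to 2 of the 9. The genes and lists were chosen with earlier results of these data known. Alternatives changed the background correction, scaling, offset, source of values, filter, probe choice, variance model, blocks and tumours.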

Additional observations from a re-analysis of the deposited data

How the results depend on the processing

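The calls of Neurod1, Neurod2, Neurog1 and Insm1 did not change under any alternative run: none passed. Directions did. When 1 tumour was left out, Neurod1 ranged from -0.082 to 0.89, Neurod2 from -0.040 to 0.29, Neurog1 from -0.17 to 0.046 (not tested without MyoD+/+ tumour 2 or MyoD+/- tumour 2) and Insm1 from -0.21 to 0.42. With the title letters as a block, where MyoD+/+ tumour 1 has no partner, Neurod2 stood at -0.041 and Scrt2 at -0.12. Neurog1 stood at 0.041 with median scaling and at 0.041 with a block on Xist signal, and could not be tested under the stricter filter. Hes6 stood at 0.14 with the mean of its probes, Olig1 at 0.074 with median scaling. When 1 tumour was left out, Scrt2 ranged from -0.12 (without MyoD+/- tumour 1 or MyoD+/+ tumour 1) to 0.50, and Olig1 from -0.36 to 0.098 (without MyoD+/- tumour 2). The number of genes past the threshold was 2 with a trend and robust estimation, and 0 to 1 when 1 tumour was left out. Median scaling moved the list medians to 0.27 (E proteins and Id genes), 0.29 (granule neuron differentiation) and 0.35 (proliferation), with a shift of 0.14 in all genes. Leaving out 1 tumour gave -0.54 to 0.0043 for the Hes and Hey list and 0.048 to 0.16 for granule neuron differentiation. Without background correction mean levels were 7.01 (Atoh1), 7.83 (Neurod1), 7.99 (dimmer Neurod2 probe), 7.02 (Neurod6), 7.13 (Nhlh1), 6.99 (Nhlh2), 7.27 (Neurog1), and 7.08 and 7.01 (Neurog2). At a detection p under 0.01 Neurog1 was detected on 0 arrays; the other genes kept their counts of arrays. The labels give the tumours no shared replicate numbers, so the title letters were the only pairing tried. Signal near background limits what can be said of Neurog1 and of the 5 genes not detected.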
